A study of Homo sapiens with 8 samples.

Results

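Desmosomal cadherins and plaque proteins were examined in HCT116 cells, an established human colon cancer line, here with wild-type p53 (p53+/+). The group given MANIO received 1 µM of this compound for 24 hours, and the group given DMSO received the solvent alone for the same time. Each group had 4 samples that the labels call biological replicates, and both were treated at about 60% confluence. All samples came from this 1 cancer line, and the labels give the compound by its name alone. The genes were chosen by name: DSG2, DSC2, DSC3, DSP, JUP, PKP1, PKP2, PKP3 and PKP4, which are 9 of the 58302 genes in the count table. Of these, 8 had enough counts to be tested, and PKP1 did not.

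Desmosomes are spot-like junctions that tie the keratin filaments of neighbouring epithelial cells together. Desmogleins (DSG) and desmocollins (DSC) are calcium-dependent cadherins that bridge the gap between the cells. Inside the cell their tails bind plakoglobin (JUP) and the plakophilins (PKP), and these bind desmoplakin (DSP), which holds the keratins. DSG2 and DSC2 are the cadherins of simple epithelia such as the colon, whereas DSC3 is best known from stratified epithelia.

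The promoters of 7 of the 9 genes were matched in the RefSeq table (build GRCh38.p14), and PKP2 and PKP3 had no entry. They run from 250 bases before to 50 bases after an annotated start, and 10 such windows were found. The windows of the desmocollin that rose, of its neighbour on chromosome 18 and of desmoplakin are shown. DSC3 and DSP were called as higher in MANIO and DSC2 was not. JUP was also called as higher, and its windows are not shown. Capitals mark CACCTG, the E-box letters known to be bound by SNAI and ZEB repressors, and AACCGG, core letters known from sites of grainyhead (GRHL) factors, on either strand.
DSC3 (chr18:31042693-31042992, minus strand): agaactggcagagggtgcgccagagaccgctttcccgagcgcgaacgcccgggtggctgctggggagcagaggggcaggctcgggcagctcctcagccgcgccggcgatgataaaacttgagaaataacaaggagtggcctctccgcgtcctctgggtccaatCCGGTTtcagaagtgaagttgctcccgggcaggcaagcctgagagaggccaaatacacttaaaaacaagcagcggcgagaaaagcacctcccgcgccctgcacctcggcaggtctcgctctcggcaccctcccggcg
DSC2 (chr18:31102372-31102671, minus strand): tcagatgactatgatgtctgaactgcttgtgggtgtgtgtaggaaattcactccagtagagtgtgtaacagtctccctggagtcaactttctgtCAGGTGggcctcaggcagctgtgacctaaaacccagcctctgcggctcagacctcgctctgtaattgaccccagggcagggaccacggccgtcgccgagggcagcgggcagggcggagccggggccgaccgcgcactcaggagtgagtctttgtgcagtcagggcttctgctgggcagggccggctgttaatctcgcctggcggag
DSP (chr6:7541421-7541720, plus strand): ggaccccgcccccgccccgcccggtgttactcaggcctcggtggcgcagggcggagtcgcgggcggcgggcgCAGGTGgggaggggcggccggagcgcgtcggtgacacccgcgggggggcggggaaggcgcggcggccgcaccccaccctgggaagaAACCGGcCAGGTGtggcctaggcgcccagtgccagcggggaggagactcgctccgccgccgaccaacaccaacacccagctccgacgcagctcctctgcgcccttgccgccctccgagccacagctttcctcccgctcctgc
AACCGG or its reverse complement was found in the windows of DSC3, at position -87 from the start, and DSP, at position -92. Of all 35116 promoter windows in the table, 7.23% held it. No AACCGG lay in the windows of JUP, which was also called as higher, or in those of DSG2, DSC2, PKP1 and PKP4. CACCTG or its reverse complement was found at positions -178 and -85 in DSP, at -156 in the window shown for DSC2, at -232 and -116 in DSG2, and at -54 and -43 in 1 of the windows of JUP. Of all windows, 20.6% held it. In DSP the CAGGTG at -85 lay 1 base beyond the end of AACCGG. No CACCTG lay in these windows of DSC3, PKP1 or PKP4. A single p53 half-site, AGGCAAGCCT at position -57, was found by the degenerate decamer pattern in DSC3, and 6.63% of all windows held such a match. These are matches of letters on either strand, not measured sites.

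The 8 libraries held 27945196 to 32509020 counts. The p53 target CDKN1A averaged 1402 ± 97.1 CPM in MANIO and 260 ± 24.0 CPM in DMSO (SD, n = 4 each). CPM are counts per 1000000 counts, scaled between libraries with TMM (trimmed mean of M-values). Mitochondrial genes took 6.70% to 7.62% of the counts in MANIO libraries and 4.82% to 7.48% in DMSO libraries. The 7.48% was that of DMSO replicate 1, and the next highest DMSO library had 5.21%. The part of mitochondrial genes in the results was not tested.

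Of 9 markers of colon epithelium, which share KRT8, KRT18, KRT19 and CDH1 with lists described further on, 8 were tested, 5 rose and 0 fell, where 27.8% of all tested genes were called as higher and 26.8% as lower. The markers summed to 4446 to 4961 CPM in MANIO libraries and 3680 to 3934 CPM in DMSO libraries. Most of this was KRT8, KRT18 and KRT19. EPCAM (log2 fold change -0.063), CLDN4 (-0.0063) and CLDN7 (0.069) were not called, and VIL1, a brush border gene, was too low to test. Of 8 fibroblast markers the 2 tested rose, and the list summed to 39.5 to 47.7 CPM in MANIO and 21.6 to 26.5 CPM in DMSO, nearly all of it COL1A1, with LUM and PDGFRA at 0. Of 10 keratinocyte markers, 1 of 2 tested rose (KRT16) and 1 fell (KRT10), with KRT1, KRT14 and LOR at 0. That list summed to 11.8 to 15.5 CPM in MANIO and 16.6 to 19.9 CPM in DMSO. Nearly all of this was KRT10, with means of 13.3 CPM in MANIO and 17.9 CPM in DMSO. Of 8 immune and endothelial markers the 1 tested fell (sums of 0.579 to 0.634 CPM in MANIO and 0.795 to 1.24 CPM in DMSO). Of 6 heart muscle markers the 2 tested rose (1.95 to 3.13 CPM in MANIO and 0.856 to 1.33 CPM in DMSO). The part of these markers in the results was not tested.

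The desmosomal genes did not move as 1 block. DSC3, desmoplakin (DSP) and plakoglobin (JUP) rose in MANIO, while PKP2 and PKP4 fell, and DSG2, DSC2 and PKP3 did not pass the test. DSC3 changed most, by 1.68-fold, and the other 4 changed by less than 1.3-fold in either direction. Among 15712 genes tested with edgeR's quasi-likelihood F test, 54.6% were called at an adjusted p under 0.05, 27.8% as higher and 26.8% as lower in MANIO. The members' counts of 3 higher and 2 lower among 8 are therefore near what the whole table gave. Their median log2 fold change was 0.032, and that of all tested genes was 0.0043. In this bulk RNA, fewer cells of a type and less RNA per cell cannot be told apart.

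**Figure D1:**
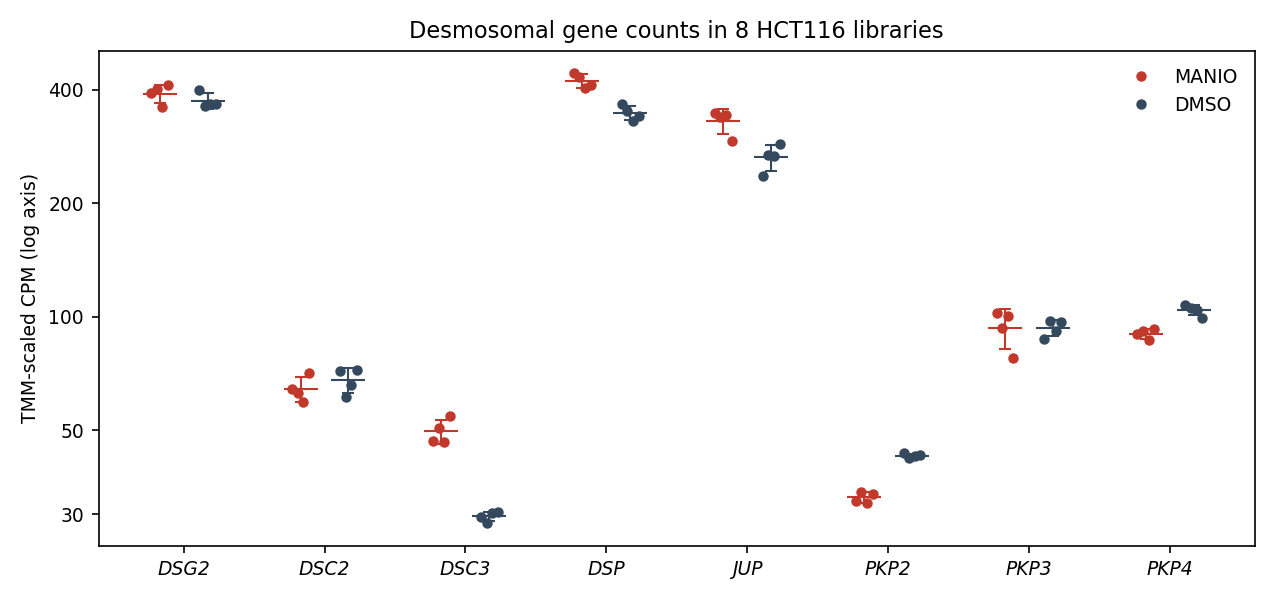
TMM-scaled CPM (log axis) of the 8 tested desmosomal genes, with a point for each library, and bars for the mean and SD of the 4 MANIO (red, left) and 4 DMSO (dark, right) libraries. DSC3, DSP and JUP lie higher in all MANIO libraries, PKP2 and PKP4 lie lower in all of them, and the groups overlap for DSG2, DSC2 and PKP3.

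Among the cadherins, DSC3 (ENSG00000134762; GRCh38 chromosome 18, 30990008 to 31042815, minus strand) had 46.8, 50.8, 46.7 and 54.5 CPM in MANIO replicates 1 to 4, against 29.4, 28.4, 30.1 and 30.3 CPM in DMSO replicates 1 to 4. Every MANIO library lay above every DMSO library, with no overlap. The means were 49.7 ± 3.73 CPM in MANIO and 29.6 ± 0.888 CPM in DMSO. The log2 fold change was 0.75, with an SE of 0.0633 (edgeR adjusted p = 1.61e-07). This log2 fold change lay above that of 92.1% of all tested genes. Tested against a limit of 1.2-fold with edgeR's glmTreat, which called 14.7% of all genes as higher and 11.6% as lower, DSC3 was the member still called as higher (adjusted p = 3.18e-06).

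DSC2 (ENSG00000134755; chromosome 18, 31058840 to 31102522, minus strand), the other desmocollin with enough counts to test, had 64.3, 63.0, 59.3 and 70.8 CPM in MANIO, against 72.0, 61.4, 65.9 and 72.4 CPM in DMSO. These ranges overlapped almost entirely. Its log2 fold change was -0.078 (SE 0.0681; edgeR adjusted p = 0.352), with a 95% interval of 0.857 to 1.05 for the fold. DSG2 (ENSG00000046604; chromosome 18, 31498043 to 31549008, plus strand), the desmoglein of simple epithelia, had 391, 401, 361 and 411 CPM in MANIO, against 400.3, 363, 366 and 367 CPM in DMSO. The groups overlapped, since DMSO replicate 1 stood above the other DMSO libraries and MANIO replicate 3 was low. Its log2 fold change was 0.064 (SE 0.0561; edgeR adjusted p = 0.351), and the interval of the fold ran from 0.963 to 1.14.

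These 3 cadherin genes lie in 1 cluster on chromosome 18 with DSC1, DSG1, DSG4 and DSG3, cadherins mainly of the epidermis and hair. Counts of those 4 were close to 0: DSC1 reached at most 9 counts in a library, DSG1 and DSG3 at most 6, and DSG4 at most 3. DSG3 summed to 14 counts over the 4 MANIO libraries and 2 over the 4 DMSO libraries, too few to test. DSC3 lies at one end of the cluster, beside DSC2, and DSG2 at the other end.

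The balance of the desmocollins was also read within each library, where no scaling is needed. The log2 ratio of DSC3 to DSC2 counts was -0.46, -0.31, -0.35 and -0.38 in MANIO, against -1.29, -1.11, -1.13 and -1.25 in DMSO. The groups were far apart, and the mean difference was 0.82, or 1.77-fold. The exact two-sided permutation p was 0.0286, the smallest that 4 against 4 can give, and 0.0800 after Benjamini-Hochberg adjustment over 7 ratios, and no ratio passed after adjustment. The ratio of DSG2 to E-cadherin (CDH1) was 1.62 ± 0.0528 in MANIO and 1.87 ± 0.0666 in DMSO on the log2 scale (SD, n = 4 each), again without overlap (exact permutation p = 0.0286, adjusted 0.0800).

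**Figure D2:**
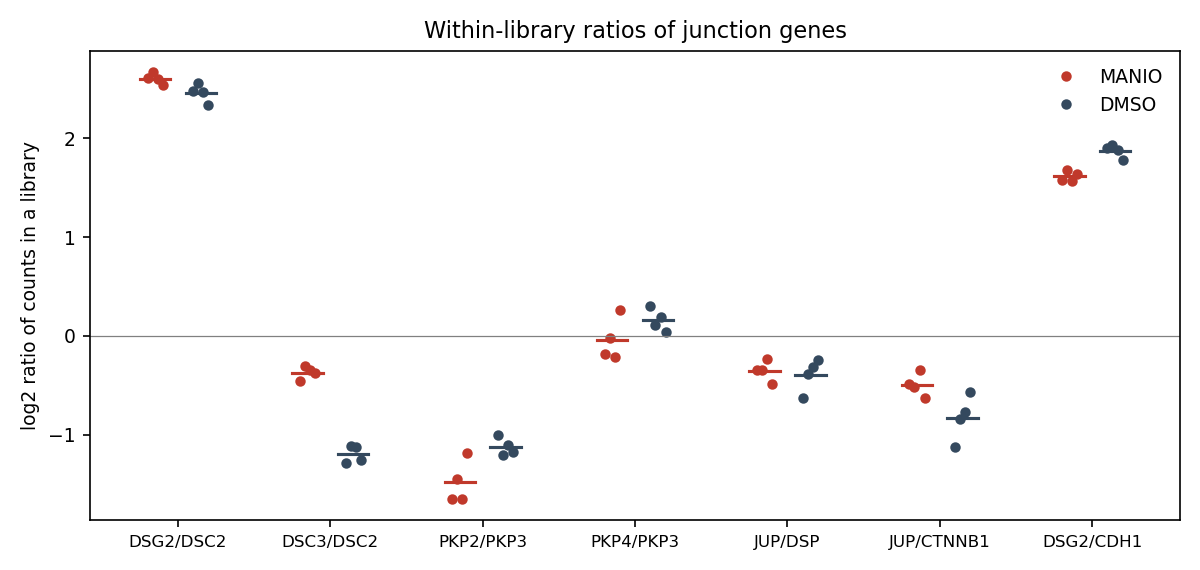
Log2 ratio of the counts of 2 genes within each library (points) with the mean of 4 (lines), MANIO in red to the left of DMSO in dark. The ratio of DSC3 to DSC2 lies between -0.46 and -0.31 in MANIO and between -1.29 and -1.11 in DMSO, and that of JUP to DSP overlaps.

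Among the plaque genes, counts of DSP and JUP rose modestly, and neither was called against the 1.2-fold limit. DSP (ENSG00000096696; chromosome 6, 7541575 to 7586717, plus strand), the plakin that binds keratins, had 443, 432, 404 and 413 CPM in MANIO, against 366, 352, 331 and 341 CPM in DMSO. The lowest MANIO library still exceeded the highest DMSO library. The means were 423 ± 17.6 CPM in MANIO and 348 ± 15.01 CPM in DMSO, with a log2 fold change of 0.28 (SE 0.0530; edgeR adjusted p = 0.000367). Over all 8 libraries DSP had the highest mean CPM of the members, although in DMSO alone DSG2 stood higher. Over the 8 libraries the tested genes whose log2 CPM was most like its own were KMT2A (Pearson r = 0.998), COL6A3 (r = 0.996) and LAMC1 (r = 0.995), a description in which the group difference is part of the likeness.

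JUP (ENSG00000173801; chromosome 17, 41754604 to 41786931, minus strand), the armadillo protein shared by desmosomes and adherens junctions, had 347, 340, 342 and 293 CPM in MANIO, against 236, 268, 266 and 288 CPM in DMSO. MANIO replicate 4 and DMSO replicate 4 nearly met, but the groups did not overlap. The means were 331 ± 25.1 CPM in MANIO and 265 ± 21.4 CPM in DMSO, with a log2 fold change of 0.32 (SE 0.0683; edgeR adjusted p = 0.00100). Its close relative beta-catenin (CTNNB1), which signals in the WNT pathway and is known to be mutated in HCT116, averaged 466 ± 25.9 CPM in MANIO and 470 ± 37.5 CPM in DMSO (log2 fold change -0.013; edgeR adjusted p = 0.882). The log2 ratio of JUP to CTNNB1 was -0.50 ± 0.118 in MANIO and -0.83 ± 0.229 in DMSO (exact permutation p = 0.0571, adjusted 0.0800), and 1 MANIO library overlapped with 1 DMSO library. For JUP against DSP the ratio differed by 0.039 (exact permutation p = 0.686).

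Plakophilins are armadillo proteins that gather desmosomal components at the plaque. Of the 3 tested, PKP2 and PKP4 fell and PKP3 did not pass. PKP2 (ENSG00000057294; chromosome 12, 32790745 to 32896840, minus strand), the form of simple epithelia and heart, had 32.5, 34.2, 32.1 and 33.98 CPM in MANIO, against 43.5, 42.1, 42.7 and 43.0 CPM in DMSO. The groups were tight and did not overlap. The means were 33.2 ± 1.05 CPM in MANIO and 42.8 ± 0.565 CPM in DMSO, with a log2 fold change of -0.37 (SE 0.0534; edgeR adjusted p = 3.72e-05). PKP2 was the member still called as lower against the 1.2-fold limit (glmTreat adjusted p = 0.0370).

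PKP4 (ENSG00000144283; chromosome 2, 158456964 to 158682879, plus strand), a relative of the p120 catenins found in both desmosomes and adherens junctions, had 90.02, 91.9, 86.6 and 92.8 CPM in MANIO, against 108, 106, 104 and 99.6 CPM in DMSO. It was lower in every MANIO library than in any DMSO library, with a log2 fold change of -0.21 (SE 0.05005; edgeR adjusted p = 0.00262). PKP3 (ENSG00000184363; chromosome 11, 392614 to 404908, plus strand), a plakophilin of nearly all epithelial desmosomes, had 102, 93.3, 101 and 77.6 CPM in MANIO, against 87.5, 97.6, 91.8 and 97.0 CPM in DMSO. The groups overlapped, with MANIO replicate 4 the lowest of the 8 libraries. Its log2 fold change was -0.00023 (SE 0.0765; edgeR adjusted p = 0.998), and the 95% interval of the fold was 0.893 to 1.12. PKP1 (ENSG00000081277; chromosome 1, 201283452 to 201332993, plus strand), the plakophilin of stratified epithelia, had 2, 2, 4 and 2 counts in MANIO and 0, 2, 1 and 1 counts in DMSO, which is too few to test.

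In all, the groups did not overlap for 5 of the 8 tested members, and for 48.3% of all tested genes. The log2 ratio of PKP2 to PKP3 was lower in MANIO, -1.48 ± 0.218, than in DMSO, -1.12 ± 0.0892 (exact permutation p = 0.0571, adjusted 0.0800). For PKP4 against PKP3 it was -0.041 ± 0.217 in MANIO and 0.16 ± 0.111 in DMSO (exact permutation p = 0.171, adjusted 0.200). DSG2 against DSC2 gave 2.60 ± 0.0548 in MANIO and 2.46 ± 0.0914 in DMSO (exact permutation p = 0.0571, adjusted 0.0800).

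Levels can be set side by side per kilobase of merged exons. On this scale JUP (66.9 ± 5.08 CPM per kb in MANIO and 53.6 ± 4.32 in DMSO) and DSG2 (63.2 ± 3.47 in MANIO and 60.4 ± 2.85 in DMSO) were highest, and in MANIO they did not differ beyond their spread. DSP followed with 41.9 ± 1.75 CPM per kb in MANIO and 34.4 ± 1.49 in DMSO, then PKP3 with 24.7 ± 2.97 in MANIO and 24.7 ± 1.26 in DMSO. PKP4 had 9.48 ± 0.286 CPM per kb in MANIO and 10.9 ± 0.357 in DMSO. The lowest tested members were DSC3 (7.04 ± 0.528 CPM per kb in MANIO and 4.19 ± 0.126 in DMSO), DSC2 (5.15 ± 0.384 in MANIO and 5.44 ± 0.421 in DMSO) and PKP2 (4.72 ± 0.150 in MANIO and 6.08 ± 0.0802 in DMSO). In MANIO the libraries' values of DSC2 and PKP2 overlapped. PKP1 stood at 0.0128 CPM per kb in MANIO and 0.0055 in DMSO.

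In MANIO the order of the desmocollins depended on the length used, while in DMSO DSC2 stood above DSC3 on each length. Annotated coding transcripts of DSC2 longer than 2 kb range from 4.78 to 12.3 kb, and which of them the cells use was not measured. Per kilobase of the shortest of these, DSC2 stood at 13.5 in MANIO and 14.2 in DMSO, above DSC3 at 7.16 in MANIO and 4.26 in DMSO. With the longest coding transcripts JUP stood above DSG2 in both groups, at 94.6 against 67.1 CPM per kb in MANIO and at 75.7 against 64.1 CPM per kb in DMSO. The length chosen does not enter the fold changes of counts, and a change of transcript use between the groups was not tested.

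**Figure D3:**
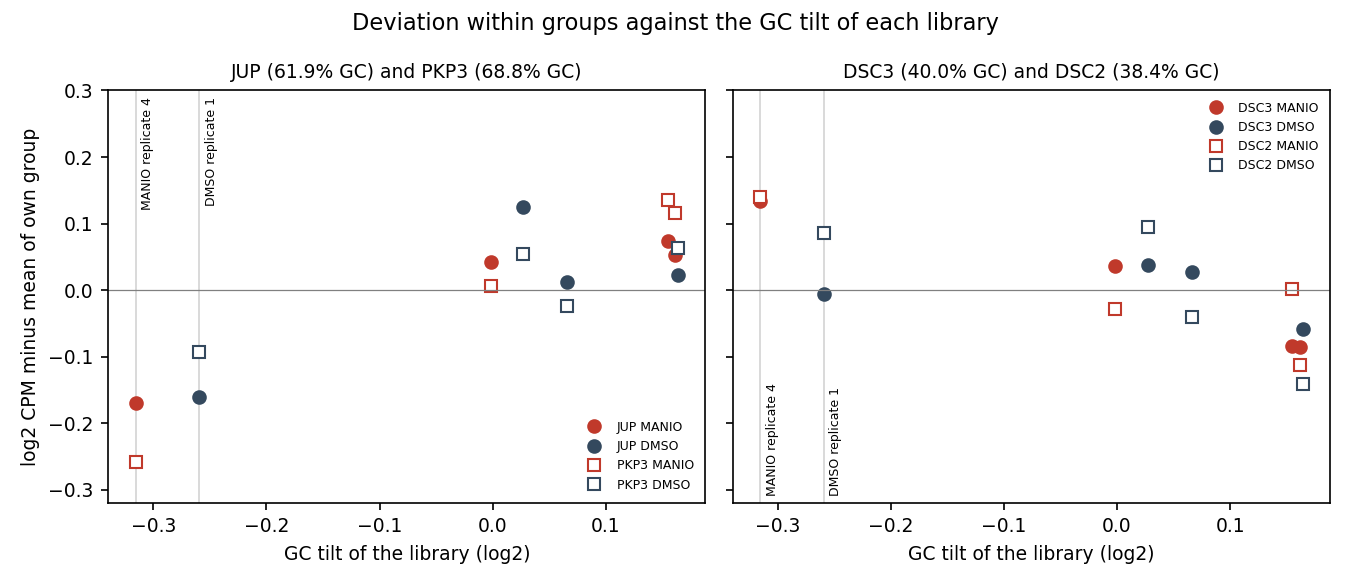
Difference of a gene's log2 CPM in each library from the mean of its own group (y axis), against the GC tilt of the library (x axis), for the GC-rich JUP and PKP3 (left) and the AT-rich DSC3 and DSC2 (right). MANIO libraries are red and DMSO libraries dark, and MANIO replicate 4 and DMSO replicate 1 sit at the left with low JUP and PKP3.

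A pair of libraries stood apart in base composition. GC tilt is taken here as the median deviation from the own group of the 10% of tested genes richest in GC, minus that of the 10% poorest. It was -0.32 in MANIO replicate 4 and -0.26 in DMSO replicate 1, and between -0.0017 and 0.16 in the other libraries. JUP, with 61.9% GC in its transcripts, and PKP3, with 68.8%, lay below their group mean in both, by a log2 deviation of -0.17 for JUP and -0.26 for PKP3 in MANIO replicate 4, and of -0.16 and -0.094 in DMSO replicate 1. Without those libraries JUP stood at 0.32 on the log2 fold scale (edgeR adjusted p = 5.26e-05), DSC3 one of 0.70 (adjusted p = 6.12e-08) and PKP3 one of 0.048 (adjusted p = 0.456). With an offset for GC content in each library, DSG2 was called as higher (log2 fold change 0.14; edgeR adjusted p = 0.00558) and PKP3 as lower (-0.14; adjusted p = 0.0460), JUP stood at 0.21 (adjusted p = 0.000174) and DSC3 at 0.82 (adjusted p = 8.34e-11). That offset also takes out differences between the groups that go with GC content: the median log2 fold change was 0.14 for the GC-rich genes and -0.046 for the GC-poor ones. With the offset 9630 of all 15712 tested genes were called, against 8574 without it.

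The other desmosomal genes with enough counts to test were called as higher. Of 8 genes listed, 3 were tested and 3 rose, and PERP alone was still called against the 1.2-fold limit. PERP, a membrane protein of desmosomes and a known p53 target, averaged 320 ± 22.6 CPM in MANIO and 229 ± 23.8 CPM in DMSO (log2 fold change 0.48; edgeR adjusted p = 5.78e-05). The plakins PPL, or periplakin (0.29; adjusted p = 0.000247), and EVPL, or envoplakin (0.25; adjusted p = 0.00799, with overlapping groups), changed by about as much as DSP. CDSN, the corneodesmosome protein, did not reach the filter. The list had a median log2 fold change of 0.29, and 27.8% of all genes were called as higher.

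Keratins form the filaments that desmoplakin anchors, and 7 that are mostly of simple epithelia were listed. Of these, 6 rose, 0 fell and 1 was not called, against 27.8% of all genes called as higher, and the median log2 fold change was 0.38. The 2 tested keratinocyte markers were added here once their values were known. KRT10, a keratin of the epidermis, fell, with 13.3 ± 1.67 CPM in MANIO and 17.9 ± 1.42 CPM in DMSO (log2 fold change -0.43, edgeR adjusted p = 0.00100). KRT16 rose at low counts, with 0.461 ± 0.0788 CPM in MANIO and 0.167 ± 0.0952 CPM in DMSO (log2 fold change 1.46, edgeR adjusted p = 0.00285). The simple-epithelial pair KRT8 (2103 ± 159 CPM in MANIO and 1618 ± 98.8 CPM in DMSO; log2 fold change 0.38) and KRT18 (938 ± 56.9 CPM in MANIO and 725 ± 57.3 CPM in DMSO; 0.37) rose alongside KRT19 (0.44). Larger changes among the 7 listed keratins were those of KRT80 (6.98 ± 0.690 CPM in MANIO and 2.57 ± 0.429 CPM in DMSO, log2 fold change 1.43) and KRT7 (2.91 ± 0.567 CPM in MANIO and 1.24 ± 0.243 CPM in DMSO, 1.22). KRT23 rose by 0.25. KRT20, a marker of differentiated colon cells, stood at -0.040 (edgeR adjusted p = 0.862). Some keratin genes have many near-identical copies in the genome. The share of exonic bases that overlap another gene was 16.3% in KRT18, 7.67% in KRT7, 7.63% in KRT8 and 6.41% in KRT23. Counts of such genes are uncertain.

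The adherens junction is the neighbouring cadherin junction, tied to actin. Of 10 tested genes, 5 rose, 1 fell and 4 were not called, beside 27.8% of all genes called as higher and 26.8% as lower. The share called in either direction was close to the 54.6% of all genes, and the median log2 fold change was 0.14. P-cadherin (CDH3) averaged 241 ± 14.3 CPM in MANIO and 186 ± 2.26 CPM in DMSO (log2 fold change 0.37), and E-cadherin (CDH1) 127 ± 4.62 CPM in MANIO and 102 ± 5.92 CPM in DMSO (0.32). ARVCF, a p120 family catenin related to PKP4, rose more than any other gene of this list, with 82.9 ± 9.51 CPM in MANIO and 45.9 ± 4.58 CPM in DMSO (0.85), and LIMA1, an actin-binding protein, rose by 0.43 on the log2 scale. The gene that fell was CTNNA1, alpha-catenin, the link to actin, with 366 ± 17.2 CPM in MANIO and 456 ± 18.9 CPM in DMSO (-0.32; edgeR adjusted p = 0.000159). N-cadherin (CDH2) had no counts in any library.

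Of 13 tested genes known to act on desmosome assembly, shedding or signalling, 6 rose, 4 fell and 3 were not called, beside 27.8% of all genes called as higher and 26.8% as lower. PRKCA, a protein kinase C whose activity is known to weaken desmosomes, averaged 16.001 ± 1.14 CPM in MANIO and 39.3 ± 2.73 CPM in DMSO (log2 fold change -1.29; edgeR adjusted p = 1.69e-09). The membrane-raft proteins FLOT1 (-0.81) and FLOT2 (-0.23), known partners of desmogleins, fell, while the membrane protease MMP14 (0.90), the crosslinking enzyme TGM1 (1.26) and the kinase SRC (0.36) rose. CAV1, a caveolar protein and with the highest mean CPM of the list, rose by 0.24 on the log2 scale.

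Among transcription factors of epithelial identity, 5 of 8 tested rose, 0 fell and 3 were not called, beside 27.8% of all genes called as higher and 26.8% as lower. Their log2 fold changes had a median of 0.32. GRHL3, a grainyhead factor of barrier epithelia, averaged 3.67 ± 0.163 CPM in MANIO and 1.19 ± 0.157 CPM in DMSO (log2 fold change 1.61; edgeR adjusted p = 1.20e-07). Its relatives GRHL1 (-0.15; adjusted p = 0.0879) and GRHL2 (0.078; adjusted p = 0.286) did not pass, nor did OVOL2 (-0.41; adjusted p = 0.164). OVOL1 (0.76, with 27.1% of its exonic bases shared with another gene), KLF5 (0.47), ELF3 (0.33) and KLF4 (0.31), epithelial regulators of other families, also rose.

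Of 4 tested repressors known to act on cadherin genes, 2 rose and 2 fell, where 54.6% of all genes were called in either direction, and the median log2 fold change was -0.17. ZEB1 averaged 1.75 ± 0.217 CPM in MANIO and 3.31 ± 0.505 CPM in DMSO (-0.92; edgeR adjusted p = 8.25e-05), and TWIST1 fell by 0.64 on the log2 scale. SNAI2 rose, with 0.532 ± 0.0821 CPM in MANIO and 0.111 ± 0.0637 CPM in DMSO (2.20; adjusted p = 0.000123), and so did SNAI1 (0.29; adjusted p = 0.0231). Without MANIO replicate 1, and without DMSO replicate 3, 1 of these repressors was called as higher.

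**Figure D4:**
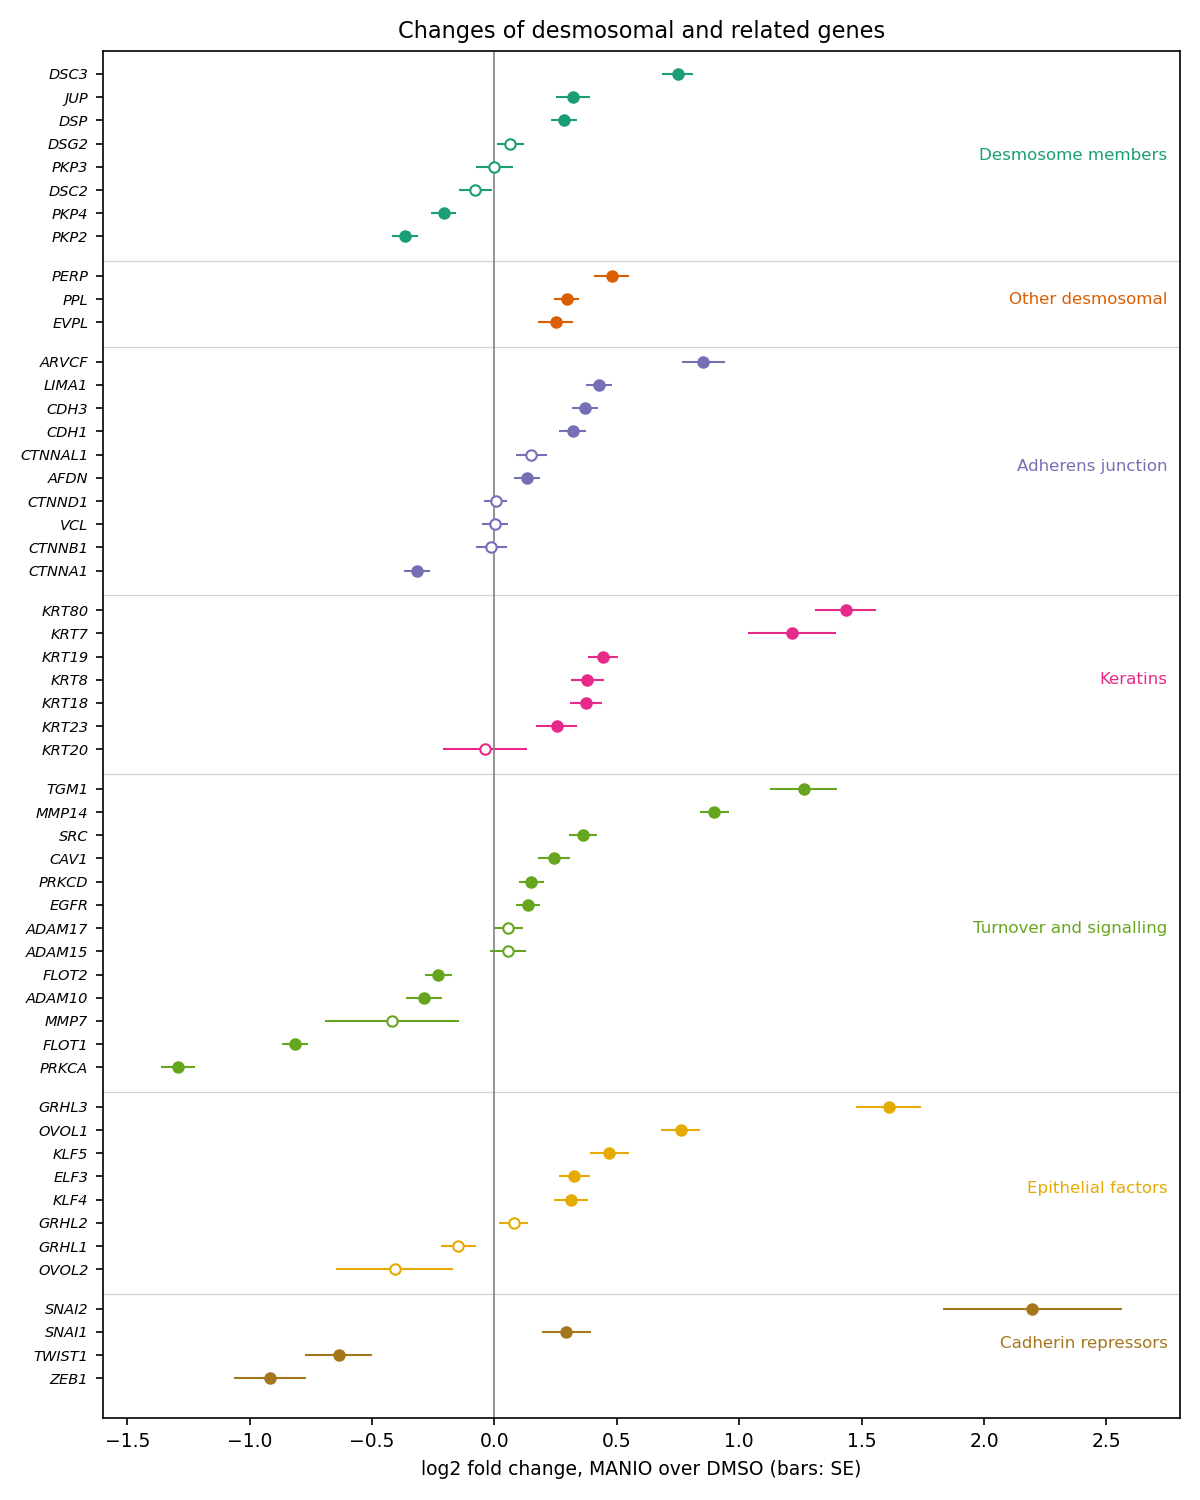
Log2 fold change of MANIO over DMSO (x axis) with its SE for each tested gene, grouped by list; filled points passed edgeR's test at an adjusted p under 0.05 and open points did not. DSC3 at 0.75 is the highest desmosomal member and PKP2 at -0.37 the lowest.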

How the data were processed

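The authors deposited raw counts for 58302 Ensembl genes in 8 libraries. Per the labels' protocols these were TruSeq RNA version 2 libraries, a kit that does not mark strand. Per the submitters' processing notes the build was GRCh38 and the tools included STAR 2.5.3a, HTSeq, FastQC 1.3 and DESeq2, with no role given. The annotation release, strand setting and handling of multi-mapping reads are not given in the sources used. Symbols come from the table, and positions and lengths from GENCODE 29, which holds 58039 of the identifiers. Reads from overlapping genes cannot be told apart: 2.76% of the exonic bases of DSG2 and 4.39% of those of PKP4 overlap an antisense gene, whose rows held at most 1 count in a library.

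Counts were filtered with filterByExpr, TMM-scaled and tested in R 4.3.3 with edgeR 4.0.16 (quasi-likelihood, robust, group alone), with Benjamini-Hochberg adjustment over 15712 genes. SE come from the F statistic, and 95% intervals from SE and the test's degrees of freedom. Ratios used counts plus 0.5. The procedure was checked on simulated counts. Alternatives were DESeq2 1.42.0, RLE and upper-quartile scaling, no filter, glmTreat, a replicate block and leaving out each library; the GC offset and leaving out 1 library of each group together were chosen after seeing the data. Members and gene lists were chosen with earlier results of these data known. All members were named, with every tested gene of pathway lists of up to 8 tested genes; cell type markers are given as counts and sums with a few examples; of longer lists the 3 called genes of smallest p in each direction and the most abundant. CDH1 was added for its ratio. 1 gene of the epithelial factor list was left out afterwards and is not reported here. No library was a copy of another: between libraries of a group, chi-square over genes was 3.38 to 22.2 per degree of freedom. Pairs with DMSO replicate 1 had 19.0 to 22.2, and other pairs at most 13.5.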

Additional observations from a re-analysis of the deposited data

Results flagged for a closer look

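DSG2 in the DMSO group had 1 value far from the others: DMSO replicate 1 stood at 400.3 CPM and the other DMSO libraries at 363 to 367 CPM, a gap of 0.895 of the range of the group. JUP in the MANIO group had MANIO replicate 4 at 293 CPM and the others at 340 to 347 CPM, a gap of 0.859 of the range. The limit for 4 samples is 0.829, 30 groups of 4 values were looked at, and chance marks about 1 in 20. Both libraries are those with the steepest GC tilt; the part of that tilt in these values was not tested.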

How the results depend on the processing

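The calls of DSC3, JUP, DSP, PKP2 and PKP4 as changed held with DESeq2, with RLE or upper-quartile scaling, without a filter, with a replicate block, with a GC offset and in each of the 8 fits without 1 library; the scalings moved the median of all genes by -0.013 to -0.0044. Against a 1.2-fold limit the calls of DSP (log2 fold change 0.28), JUP (0.32) and PKP4 (-0.21) were lost, which left 1 member higher and 1 lower. That limit also left 1 other desmosomal gene, 3 adherens genes, 3 keratins, 2 turnover genes, 3 epithelial factors and 1 repressor higher. As lower it left 0 adherens genes, 2 turnover genes and 2 repressors. Of all tested genes it called 14.7% as higher and 11.6% as lower. With a GC offset DSG2 (0.14) and PKP3 (-0.14) were called, also with a replicate block (0.14 and -0.14). Calls among all tested genes rose too, from 8574 to 9630 with the offset and to 10470 with offset and block. The cause was not tested. PKP3, near zero, turned to 0.0016 without MANIO replicate 2, 0.080 without MANIO replicate 4, 0.020 without DMSO replicate 2, 0.014 without DMSO replicate 4 and 0.048 without the steepest-GC library of each group; its range over single libraries left out was -0.044 to 0.080. Without DMSO replicate 1 the JUP to DSP ratio was -0.040, in a range of -0.040 to 0.090. Repressors called higher ranged from 1 to 3, and fits with 3 held a gene below the main filter. Apart from the 1.2-fold limit, turnover genes called higher ranged from 4 to 6 (6 in the main fit). Adherens genes ranged from 4 to 6 (5 in the main fit) and keratins from 5 to 6.

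The labels number replicates in both groups, but same-numbered libraries correlated at 0.013 to 0.21, and 2 of 8 libraries matched their own number best, so the numbers were not taken as pairs. With the replicate block DSC3 stood at 0.75 and the members called were again 3 and 2. For ratios, a paired exact permutation test over 4 pairs cannot give a two-sided p below 0.125, so it could not pass whatever the data (adjusted p = 0.219 for DSC3 to DSC2). With 4 libraries a group, the 95% intervals still allow folds of up to 1.14 for DSG2, down to 0.857 for DSC2 and 0.893 to 1.12 for PKP3.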
